A study of Mus musculus with 4 samples.

Results

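The receptors that natural killer (NK) cells use to read other cells were examined in leukocytes from 20967 melanomas. The family was taken as 10 named genes, out of 32285 genes in the expression table: Klrd1, Klrk1, Klrc1, Klrc2, Klre1, Klra1, Klra7, Klrb1c, Klrg1 and Ncr1. All 10 were found in the table by symbol. Single cell RNA sequencing of sorted CD45+ cells covered 5 control and 5 clobetasol propionate treated tumors, and clobetasol propionate is a potent topical glucocorticoid (GC). The 20967 line came from a C57BL/6 mouse that carried Nras+LSL-G12D and a Tyr::CreERT2 transgene, in which the tyrosinase promoter drives an inducible Cre in melanocytes, and it was grown in wild type C57BL/6 mice in both groups. Each tumor carried its own hashtag, and all 5 tumors of a group shared 1 channel, so treatment and channel cannot be told apart. The drug was applied to the skin of the tumor, an emollient cream served as the control, and tumors were collected in the first week of treatment. The labels do not give the age of the mice. Levels were described mainly in control cells of the NK, CD8 1, CD8 2, CD8 3, CD4, γδT and Treg clusters as the authors named them, which held 1769 control cells of 4108 cells in all. The GC group was compared with control only in CD8 T cells, the sole one of these populations with enough GC cells for a test.

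NK cells have no rearranged antigen receptor and instead weigh signals from many germline-encoded inhibitory and activating receptors. Most of these receptors in the mouse are C-type lectin-like proteins encoded side by side in the NK gene complex, and several are shared with cytotoxic T cells after activation. CD94, the product of Klrd1, pairs with NKG2A (Klrc1) to give an inhibitory receptor or with NKG2C (Klrc2) to give an activating one, and both see the non-classical class I molecule Qa-1. NKG2D (Klrk1) activates killing of cells that display stress-induced ligands, and signals through the adaptors DAP10 (Hcst) and DAP12 (Tyrobp). Klre1 encodes a partner of the KLRI receptors. Klra1 and Klra7 encode Ly49A and Ly49G, inhibitory receptors for classical class I that are switched on in only some NK cells. Klrb1c encodes NK1.1, the antigen by which NK cells of C57BL/6 mice are usually stained, Klrg1 encodes an inhibitory receptor for cadherins, and Ncr1 encodes NKp46, an activating receptor of the immunoglobulin superfamily.

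Of the 10 genes, 9 lay on chromosome 6 and 8 of these fell within 1.61 Mb of it, from 128778485 to 130386874 (GRCm38, GENCODE annotation). Klrd1 (129591782 to 129598775, plus strand) and Klrk1 (129610323 to 129623864, minus strand) were 11547 bases apart. Klrc2 (129647496 to 129660689, minus strand), Klrc1 (129666015 to 129678973, minus strand) and Klre1 (129577905 to 129585827, plus strand) flanked them. The Ly49 genes Klra7 (130218605 to 130233322) and Klra1 (130363917 to 130386874) and the NK1.1 gene Klrb1c (128778485 to 128789215) sat at the ends of the cluster, all on the minus strand. Klrg1 (122270596 to 122282882, minus strand) was 6.50 Mb outside the cluster. Ncr1 was on chromosome 7 (4337724 to 4345164, plus strand). Genes of this cluster differed in the cells that held them, as the levels of Klrk1 and Klra7 given below show.

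The 250 bases upstream of the start are shown for 5 members that differ in this respect, 2 found in CD8 T cells (Klrk1 and Klrc1) and 3 found in the NK cluster and hardly in CD8 T cells (Klra1, Klra7 and Ncr1). The sequences are from RefSeq (GRCm38.p6), read 5′ to 3′ on the strand of the gene. Capitals mark the letters TGTGGT, a core of Runx binding sites, on either strand.
Klrk1: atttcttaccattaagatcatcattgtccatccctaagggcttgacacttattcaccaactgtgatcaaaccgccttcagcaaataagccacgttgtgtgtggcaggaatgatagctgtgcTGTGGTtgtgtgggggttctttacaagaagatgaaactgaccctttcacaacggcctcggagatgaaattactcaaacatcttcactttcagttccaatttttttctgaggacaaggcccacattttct
Klrc1: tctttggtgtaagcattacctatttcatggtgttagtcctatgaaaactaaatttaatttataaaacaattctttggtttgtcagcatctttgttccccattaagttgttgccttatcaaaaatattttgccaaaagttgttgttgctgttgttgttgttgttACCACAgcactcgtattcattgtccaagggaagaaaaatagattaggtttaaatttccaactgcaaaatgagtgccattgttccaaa
Klra1: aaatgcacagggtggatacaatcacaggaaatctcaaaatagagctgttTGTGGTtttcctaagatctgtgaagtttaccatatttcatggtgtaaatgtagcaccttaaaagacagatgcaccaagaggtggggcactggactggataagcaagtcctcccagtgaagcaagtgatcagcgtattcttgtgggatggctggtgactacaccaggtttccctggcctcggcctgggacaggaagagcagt
Klra7: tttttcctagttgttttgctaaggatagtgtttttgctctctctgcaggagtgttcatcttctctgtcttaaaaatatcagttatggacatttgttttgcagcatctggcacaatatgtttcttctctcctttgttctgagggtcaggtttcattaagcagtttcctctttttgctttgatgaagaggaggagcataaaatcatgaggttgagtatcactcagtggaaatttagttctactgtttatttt
Ncr1: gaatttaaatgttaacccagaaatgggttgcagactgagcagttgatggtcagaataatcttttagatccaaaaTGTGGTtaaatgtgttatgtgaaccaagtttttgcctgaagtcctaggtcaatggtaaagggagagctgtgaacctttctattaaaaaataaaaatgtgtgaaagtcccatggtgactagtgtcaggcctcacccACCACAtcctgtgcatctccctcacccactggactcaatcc
The Klrk1 window is chr6:129623865-129624114, the Klrc1 window chr6:129678974-129679223, the Klra1 window chr6:130386875-130387124, the Klra7 window chr6:130233323-130233572 and the Ncr1 window chr7:4337465-4337714. TGTGGT was present once each upstream of Klrk1, Klrc1 and Klra1, 2 times upstream of Ncr1 and not in the Klra7 window. It was present in 14.0% of 32851 promoter windows of the same length. AGGTGT (a T-box core, in 11.8% of windows), TTCNNNGAA (a STAT site, in 7.02%) and the palindromic glucocorticoid response element (in 0.387%) were also searched on both strands, and none was found in these 5 windows, so no match overlapped another. These are letter matches in a short window and carry no statement about binding. The Klra1 and Klra7 windows were identical in 47.3% of aligned positions, and the other pairs of these 5 windows in 47.9% to 53.1%. Pairs with Klrc2, whose window held only 157 bases, were at 39.6% to 48.4%. Klrd1 and Klrg1 had no entry in the promoter table.

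The control channel held 3803 cells and the GC channel 305 cells, with no barcode shared between them. Control tumors contributed 347 to 1250 cells and GC tumors 18 to 111. The median control cell held 7440 unique molecular identifiers (UMIs, each counting 1 captured RNA molecule) and the median GC cell 9163. The deposited unit, the natural log of 1 plus UMIs per 10000 UMIs of the cell, was turned back to UMIs per 10000 and averaged over the cells of a class in each tumor. The NK cluster (107 control cells, 6 to 28 per tumor) had a UMI of the NK factor Eomes in 55.1% of cells, of the granzyme Gzma in 60.7% and of the integrin Itga2 in 57.9%. The 13 NK markers on the list summed to 113 per 10000 there (73.3 to 149 between tumors), and to 45.5 (34.7 to 53.1) in CD8 3, the next cluster. Of that list Ccl5, Itga1 and Tnfsf10 were in fewer NK cells (59.8%, 48.6% and 29.9%) than CD8 1 cells (62.1%, 81.4% and 44.9%). A Cd3d, Cd3e or Cd3g UMI was present in 21.5% of NK cluster cells, against 9.54% of tumor-associated macrophages (TAMs) and 94.4% of CD8 1 cells. Of the other T cell markers, Trbc1 was in more NK cluster cells (86.0%) than CD8 1 cells (54.2%), and Trac, Trbc2, Cd5 and Cd6 were in fewer. The γδT cluster (43 control cells) held Trdc in 69.8% of cells and the Treg cluster (486) held Foxp3 in 77.6%. The CD4 cluster (253) matched its name less well, with Cd4 in 34.4% of cells and Cd8a in 21.7%, and the summed level of 6 B cell markers in it ran from 1.14 to 8.50 per 10000 between tumors. Because these clusters were made from the same cells and genes, differences between them are given as levels with their spread over the 5 control tumors and without a test.

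**Figure D1:**
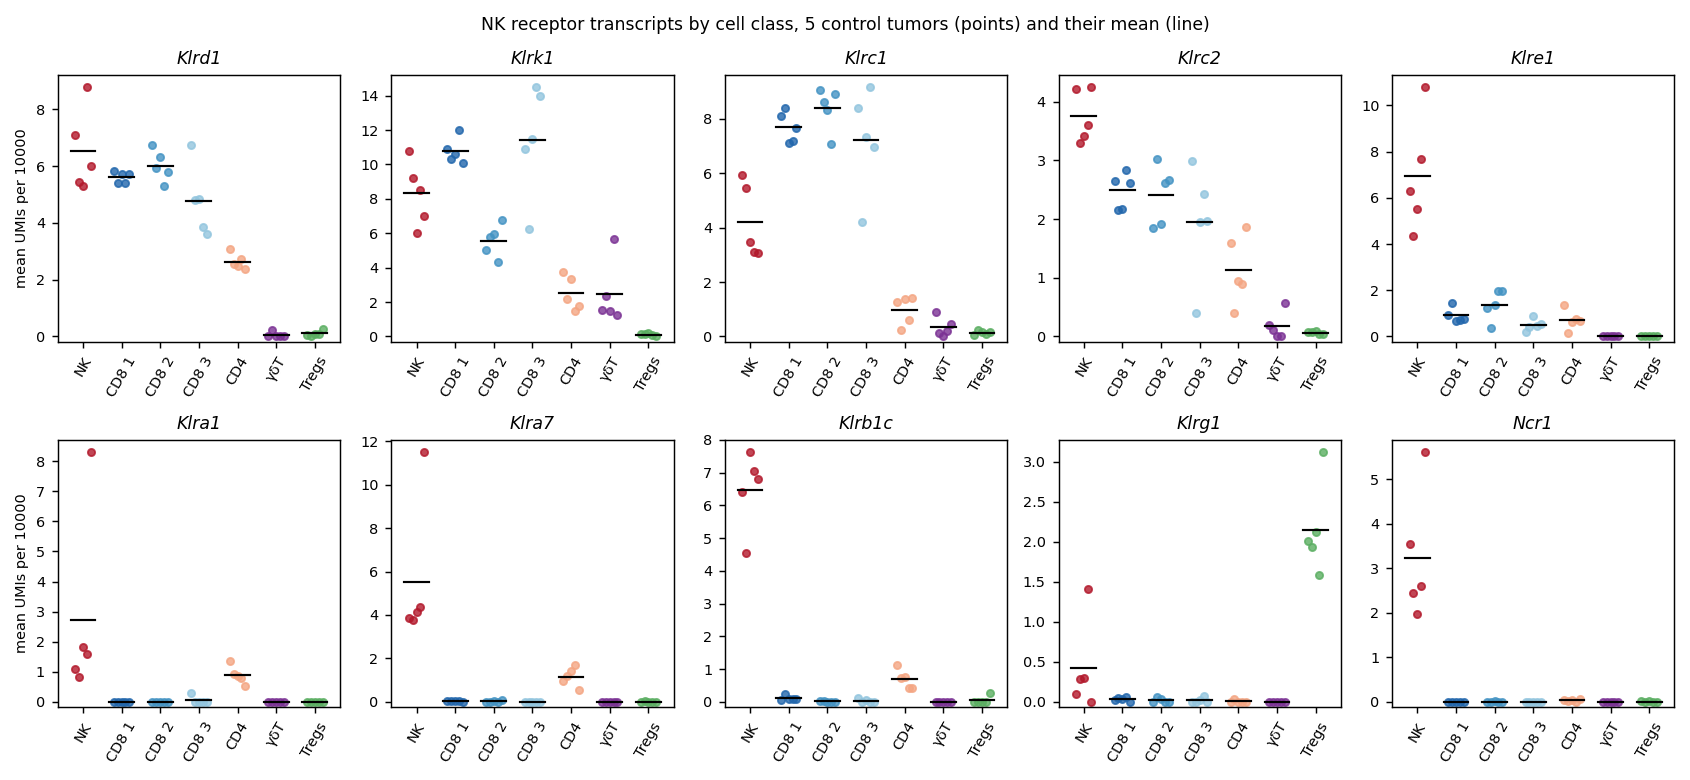
Mean UMIs per 10000 of each of the 10 genes in the 7 control classes, with 1 point per tumor and a bar at the mean of 5 tumors. Klrd1, Klrk1 and Klrc1 are high in the NK and the 3 CD8 clusters, Klra1, Klra7, Klrb1c and Ncr1 are near 0 in the CD8 clusters, and Klrg1 is highest in Tregs (2.15).

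The CD94/NKG2 genes were shared between NK cells and CD8 T cells. Klrd1 averaged 6.53 ± 1.45 UMIs per 10000 in NK cells (SD, n = 5 tumors), with 7.10, 5.43, 5.31, 8.79 and 6.01 in replicates 1 to 5. It averaged 5.62 ± 0.191 in CD8 1, 6.02 ± 0.542 in CD8 2 and 4.77 ± 1.23 in CD8 3 (n = 5). The tumor ranges of these 4 clusters overlapped. Within tumors, NK cells were above CD8 3 in all 5, above CD8 1 in 4 and above CD8 2 in 3. NK cells thus had no constant order with CD8 1 or CD8 2 for Klrd1. The CD4 cluster followed at 2.64 ± 0.273, apart from CD8 3, and Tregs (0.104) and γδT cells (0.0437, from 2 UMIs in 1 cell) were close to 0.

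Klrc1, which encodes the inhibitory partner NKG2A, was higher in CD8 T cells than in NK cells. It averaged 8.40 ± 0.785 in CD8 2, 7.70 ± 0.561 in CD8 1 and 7.22 ± 1.90 in CD8 3, against 4.21 ± 1.38 in NK cells (n = 5). The NK values were 5.94, 5.46, 3.47, 3.11 and 3.07 in replicates 1 to 5. In all 5 tumors the level was higher in CD8 1 and in CD8 2 than in the NK cells of that tumor, by 1.83 and 1.99 times on average. CD8 3 was above NK in 4 of 5 tumors and its range overlapped that of NK. Levels in the CD4 cluster (0.978 ± 0.539), γδT cells (0.330 ± 0.356) and Tregs (0.136 ± 0.0730) were far below.

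Klrc2, which encodes the activating partner NKG2C, had the opposite order. It averaged 3.75 ± 0.448 in NK cells, with 4.21, 3.29, 3.42, 3.61 and 4.25 in replicates 1 to 5, and every NK value was above every CD8 1 value (2.15 to 2.83). The 3 CD8 clusters, at 2.49, 2.41 and 1.95, overlapped each other. The CD4 cluster was at 1.14 ± 0.592, and the γδT and Treg clusters at 0.175 and 0.0646. Within their annotated transcripts Klrc1 shared 18.6% and Klrc2 8.75% of all 90-base stretches, the length of the cDNA read, with another gene (Klrc2 for Klrc1, Klrc1 and Klrc3 for Klrc2). Near the 3′ end, where this kit reads, 21.9% of Klrc1 stretches and 6.36% of Klrc2 stretches were shared. Reads from introns were counted too, and the stretches were taken from transcripts only. Reads from shared stretches cannot be assigned to 1 gene, so the 2 levels were measured on the remaining sequence.

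Klrk1, the NKG2D gene, was the only member whose level was highest in CD8 3. It averaged 11.4 ± 3.27 in CD8 3 and 10.8 ± 0.759 in CD8 1, and these overlapped. The CD8 1 values were 10.9, 10.3, 10.6, 12.0 and 10.1 in replicates 1 to 5, each above the NK value of the same tumor (10.8, 9.19, 6.00, 8.50 and 7.03), although the ranges overlapped. CD8 2 was lower, at 5.57 ± 0.929, and below NK cells (8.31 ± 1.89) in all 5 tumors. For Klrk1, CD8 1 and CD8 2 were thus apart while the range of CD8 3 overlapped both, whereas Klrd1 and Klrc1 overlapped across all CD8 clusters compared. The CD4 cluster (2.50 ± 0.986) and γδT cells (2.45 ± 1.84) overlapped, and Tregs were at 0.110. Klrk1 was the only member with more than 10 UMIs in control γδT cells, where 27 of 43 cells held at least 1.

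Klre1 was high in NK cells and low but present in CD8 T cells. The NK values of replicates 1 to 5 were 6.29, 4.37, 5.52, 7.70 and 10.8, with a mean of 6.94 ± 2.49. CD8 2 (1.37 ± 0.667), CD8 1 (0.908 ± 0.328), the CD4 cluster (0.712 ± 0.435) and CD8 3 (0.501 ± 0.241) followed, each overlapping the next. All of these were apart from NK cells, which stood 5.06 times above CD8 2. γδT cells held 0 Klre1 UMIs.

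The Ly49 and NK1.1 genes were measured in the NK and CD4 clusters and hardly in the 3 CD8 clusters. Klra7 averaged 5.54 ± 3.34 in NK cells, with 3.88, 3.77, 4.16, 4.39 and 11.5 in replicates 1 to 5. Klra1 averaged 2.72 ± 3.14, with 1.08, 0.830, 1.81, 1.59 and 8.30. Replicate 5, which contributed 6 NK cells, was the highest for both genes, and without it the Klra1 mean was 1.33. In the CD4 cluster Klra7 was at 1.16 ± 0.438, below NK in all 5 tumors, and Klra1 at 0.888 ± 0.301, below NK in 3 of 5 and overlapping it. The larger CD4 cluster held more Klra1 UMIs in all (224) than the NK cluster (148).

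Klrb1c averaged 6.48 ± 1.18 in NK cells (6.40, 4.53, 7.62, 7.04 and 6.81) and 0.682 ± 0.287 in the CD4 cluster, with no overlap. In CD8 1 it was at 0.108 ± 0.0778, a level supported by 40 UMIs in 517 cells. Over the 880 control cells of the 3 CD8 clusters only 4 Klra1 UMIs and 10 Klra7 UMIs were counted. Of the 90-base stretches of Klrb1c, 11.5% were shared, with Klrb1a and with Gm44511, a gene model that overlaps it on the same strand. Klra1 shared none and Klra7 3.33%, with the Ly49 pseudogene Klra13-ps.

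Ncr1 was the member most restricted to the NK cluster. It was at 3.54, 2.45, 1.96, 2.59 and 5.60 UMIs per 10000 in NK cells of replicates 1 to 5, with a mean of 3.23 ± 1.44. The next level was 0.0284 ± 0.0258 in the CD4 cluster, from 7 UMIs in 5 cells, and the ratio of the means was 114. CD8 1 and CD8 2 held 1 UMI each and Tregs 2. In γδT cells and CD8 3 no Ncr1 UMI was found, which at a floor of 3 UMIs per class puts NK cells at least 32.7 times and 70.1 times higher.

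Klrg1 was highest in Tregs. They were at 2.01, 1.94, 2.12, 1.58 and 3.12 per 10000 in replicates 1 to 5 (mean 2.15 ± 0.578), which was 5.16 times the NK level and higher in all 5 tumors. NK cells were at 0.418 ± 0.566, and 1 tumor, replicate 4, stood at 1.41 while the others were between 0 and 0.297. All 3 CD8 clusters were at or under 0.0300. By their means 7 members were highest in the NK cluster (Klrd1, Klrc2, Klre1, Klra1, Klra7, Klrb1c and Ncr1), and Klrk1, Klrc1 and Klrg1 in other clusters. Of the 7, Klrd1 overlapped CD8 2 and Klra1 overlapped the CD4 cluster. The number was 6 without control replicate 4 or without the NK cells that held a Cd3 UMI, where Klrd1 in NK cells (5.96 and 5.94) was below CD8 2. Summed over the 10 genes, NK cells held 48.1 ± 9.77 UMIs per 10000, CD8 1 27.7 ± 0.959, CD8 2 23.8 ± 1.74, CD8 3 26.0 ± 5.78, the CD4 cluster 10.7 ± 2.45, γδT cells 3.00 ± 1.66 and Tregs 2.66 ± 0.738.

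The share of cells with a UMI of each gene was then counted after thinning every cell to 2000 UMIs, which removes the difference in depth between clusters (median 8736 UMIs in NK and 6342 in CD8 1). Background was read from 1304 TAMs, monocytes and neutrophils (median depth 11645.5 UMIs before thinning), which should lack most of these genes. Klrb1c was found in 61.3% of 106 NK cells (51.4 to 70.6, exact 95% binomial interval, for counting error only), Klre1 in 61.3% and Klrd1 in 70.8%. In these myeloid cells the shares were 0.307% for Klrb1c, 0% for Klre1 (0 of 1304 cells, at most 0.230% by a limit of 3 cells) and 1.84% for Klrd1. Ncr1 was found in 26.4% of NK cells (18.3 to 35.9), against 0.0767% of the myeloid cells, and in 74.8% of NK cells without thinning.

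Klrg1 was found in 25.3% of 447 Tregs (21.3 to 29.6) and 4.72% of NK cells (1.55 to 10.7). In CD8 1 the shares were 77.8% for Klrk1, 69.9% for Klrc1, 57.7% for Klrd1, 33.9% for Klrc2 and 14.0% for Klre1. The corresponding share of Klrb1c was 2.20% (1.11 to 3.91) and the share of Klra7 was 0.802% (0.219 to 2.04), whose interval included the myeloid share of 0.383%. For Klrk1 the myeloid share was 6.75%, so that the 1.57% of Tregs with a Klrk1 UMI was not above background, while the 30.0% of γδT cells was (16.6 to 46.5).

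**Figure D2:**
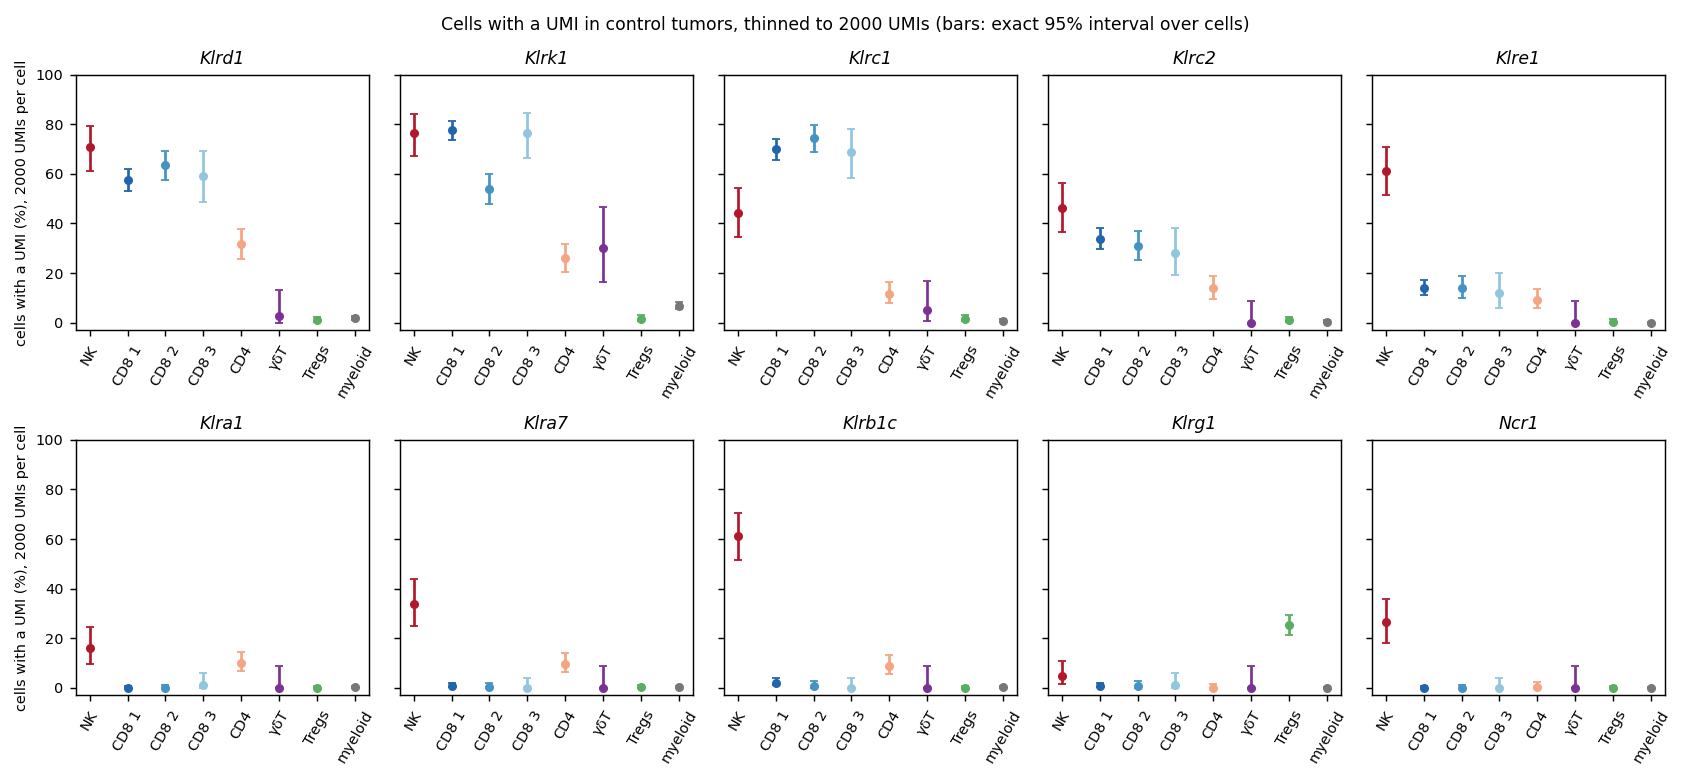
Percent of control cells with at least 1 UMI of each gene after thinning to 2000 UMIs, for the 7 classes and for the myeloid background classes, with exact 95% binomial intervals. Ncr1 reaches 26.4% in NK cells and stays at or below 0.405% in the other 6 classes, and Klrk1 reaches 77.8% in CD8 1.

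NK cells carried more members at once than any T cell cluster. At 2000 UMIs per cell the median NK cell held 4 of the 10 transcripts and 43.4% held 5 or more. The median CD8 1 cell held 3, and 3.21% of CD8 1 cells held 5 or more. In the CD4 cluster the median was 0, yet 6.07% of cells held 5 or more, and 50.2% held none. No γδT cell or Treg held more than 2.

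Genes whose products pair were found together in many NK and CD8 T cells, and so were Klrd1 and Klrk1. Klrd1 was found in 74.5% of NK cells with Klrc1 and in 67.8% of NK cells without it. In CD8 1 the corresponding shares were 58.7% and 55.3%, and in the CD4 cluster 55.2% and 28.4%. With and without Klrc2, the other partner, Klrd1 shares were 64.5% and 54.2% in CD8 1 and 62.2% and 63.9% in CD8 2. With and without Klrk1, not named above as a partner, they were 60.3% and 48.6% in CD8 1 and 67.9% and 80.0% in NK cells. Without thinning, both Ly49 genes were found in 16 of 107 NK cells, Klra1 alone in 10, Klra7 alone in 35 and neither in 46. In the CD4 cluster the corresponding numbers were 25, 18, 17 and 193 of 253 cells. A cell without a UMI may still express the gene at this depth, and background was not counted for these pairs, so they are counts of droplets with UMIs of both genes, 1 or neither.

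The CD4 cluster was divided by the coreceptor UMIs of each cell, a split made after its values were seen. It separated 81 cells with Cd4 only, 56 with Cd8a or Cd8b1 only, 110 with neither and 6 with both. Klrb1c and Klra7 had 0 UMIs in the 81 Cd4-only cells and Klra1 had 1. In cells with neither coreceptor Klrb1c was at 1.39 ± 0.614 per 10000 (n = 5 tumors), Klra7 at 1.87 ± 1.07 and Klra1 at 1.61 ± 0.823, and these cells held 84.1%, 62.5% and 75.4% of the cluster's UMIs of the 3 genes. Cells with CD8 UMIs only were at 0.434 ± 0.564 for Klrb1c, 1.57 ± 0.821 for Klra7 and 0.752 ± 0.691 for Klra1. Klrb1c, Klra7 and Klra1 in the CD4 cluster thus lay almost wholly in cells without a Cd4 UMI. Klrd1 was at 3.84 ± 0.920 and 3.58 ± 1.22 in those subsets and at 0.423 ± 0.387 in Cd4-only cells, of which 19.8% held a UMI. Klrk1 was at 3.02 ± 0.674, 3.21 ± 1.32 and 1.42 ± 1.56, with ranges that overlapped, and 29.6% of Cd4-only cells held a UMI of it.

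Most of these cells also held transcripts of the T cell receptor complex. A Cd3 UMI was found in 46 of the 47 CD4 cluster cells with a Klrb1c UMI, in 42 of 42 with Klra7 and in 42 of 43 with Klra1. In the NK cluster it was found in 20 of 100 cells with Klrb1c. Cells with neither coreceptor held a Cd3 UMI in 80.9% of cases, and their median depth was 6643.5 UMIs, close to the 6486 of Cd4-only cells, whereas the CD8-only cells were deeper (10788). A Foxp3 UMI was found in 0 of the 47 Klrb1c cells. No doublet caller was run, and the part of droplets holding 2 cells of the same tumor in this pattern was not tested.

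**Figure D3:**
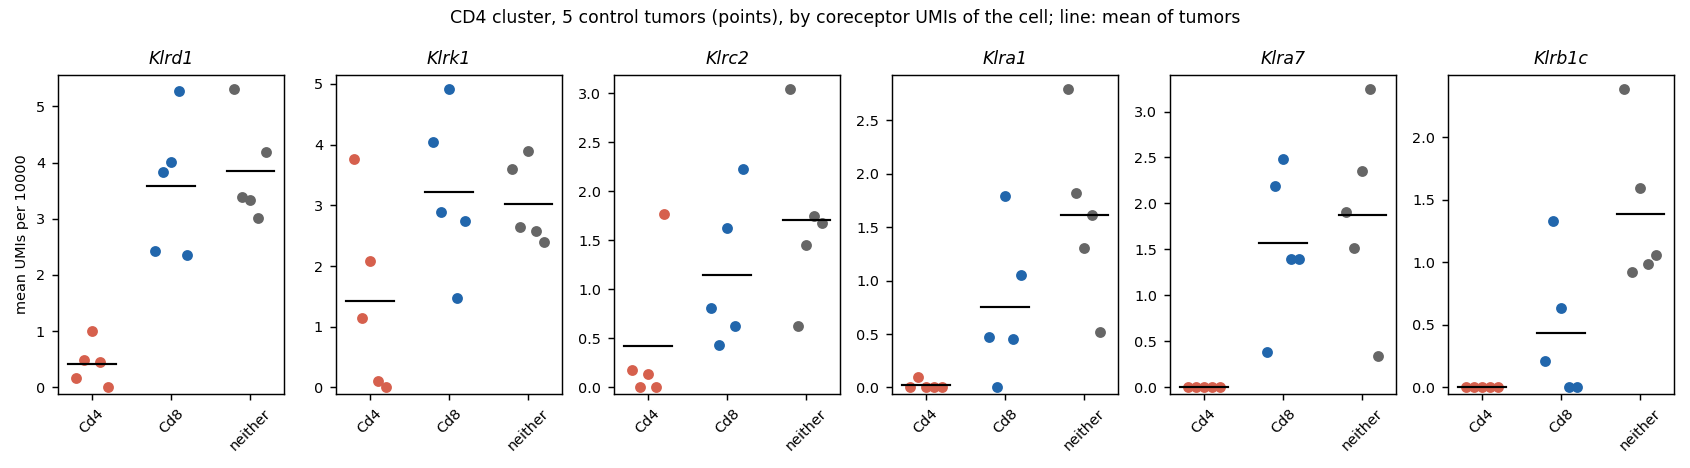
Mean UMIs per 10000 of the members in control cells of the CD4 cluster, divided by coreceptor UMIs, with 1 point per tumor and a bar at the mean. Klrb1c and Klra7 are at 0 in all 5 tumors in cells with Cd4 only and average 1.39 and 1.87 in cells with neither coreceptor.

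Among these 7 clusters, Tyrobp and Fcer1g, adaptors that carry the signal of these receptors, were found mainly in the NK cluster. Of 15 adaptor and signalling genes on a list chosen by function, 10 had their highest level in NK cells. Some of these differed little between clusters, such as Ptpn11 at 0.588 in NK cells and 0.556 in the CD4 cluster. Tyrobp (DAP12) was at 6.18 ± 1.78 in NK cells and 0.164 in CD8 1, and Fcer1g, the adaptor of NKp46 and NK1.1, was at 7.75 ± 1.29 and 0.291. For both genes the CD4 cluster was next after NK cells, at 0.263 for Tyrobp and 0.900 for Fcer1g. Hcst (DAP10), the adaptor through which NKG2D signals in T cells, was highest in CD8 3 (4.96 ± 1.55) and lower in NK cells (2.86). Lat, a T cell receptor adaptor, was at 0.335 in NK cells and 2.54 in CD8 1. The CD8 clusters thus held Klrk1 with Hcst and little Tyrobp.

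Of the other NK complex and NK receptor genes, 12 of the 20 with a level of at least 0.2 in some class were highest in NK cells. Klra8 (Ly49H, 6.27 ± 2.04) and Klra4 (Ly49D, 6.77 ± 2.17) are activating Ly49 genes, and unlike Klra1 and Klra7 they were at about 0.01 or less in the CD4 cluster (0.00893 and 0.0103). Klri2, a partner of Klre1, was at 3.08 ± 0.957 in NK cells, 1.35 in CD8 2 and 0.794 in CD8 1, the same order of these clusters as Klre1. Of 13 transcription factors measured at that level, 4 were highest in NK cells, including Eomes (2.78 ± 0.909, against 0.0386 in CD8 1) and Tbx21 (5.64 ± 1.64, against 4.17). Of 10 cytokine receptor genes 2 were highest in NK cells, among them Il2rb at 11.8 ± 1.54, and of 8 ligand genes 2. H2-T23, which encodes the Qa-1 ligand of CD94/NKG2, was present in every class, from 1.63 in the CD4 cluster to 4.44 ± 1.34 in CD8 3.

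Genes with the most similar pattern were sought over 35 profiles (7 classes in 5 control tumors) among 7989 genes, by Pearson's r of log2(UMIs per 10000 + 0.1). These profiles share tumors, channel and depth differences, and the r is a description. Ncr1 was matched by Fam184a (0.990), Klra8 (0.988) and Eya1 (0.986). Klra1, Klra7 and Klrb1c all had Atp1b1 as their first match, at 0.946, 0.973 and 0.953, and Lrmda among their first 3. Klrd1 was matched by Fasl (0.965), Nkg7 (0.962) and Il12rb2 (0.954), which encode a death ligand, a cytotoxic granule protein and an interleukin 12 receptor chain. Klrc1 was nearest to Slamf7 (0.945), Klrc2 to Runx3 (0.906), Klre1 to Efhd2 (0.917), Klrk1 to Atp8b4 (0.897) and Klrg1 to Ston2 (0.927). Between members, r was 0.958 for Klra1 and Klra7, 0.949 for Klra7 and Klrb1c and 0.907 for Klrd1 and Klrc2, and it was negative for Klrk1 and Klrg1 (-0.687).

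The members were next compared between GC and control tumors in CD8 T cells (clusters CD8 1 to CD8 3 together), which asked whether GC treatment altered NK receptor transcripts of tumor CTLs. Tumors with at least 10 such cells were used, which left 3 GC tumors (replicates 2, 3 and 5, with 12, 38 and 41 cells) and 5 control tumors (84 to 385 cells). Klrk1 fell and Klrc2 passed the threshold narrowly, while 3 further members did not pass. Klrk1 was at 8.89, 8.53, 9.36, 10.5 and 9.37 UMIs per 10000 in control replicates 1 to 5 and at 5.73, 6.69 and 6.15 in GC replicates 2, 3 and 5. Every GC tumor was below every control tumor, and the log2 change was -0.58 ± 0.11 on the scale of log2(UMIs per 10000 + 0.1) (SE, limma, Benjamini-Hochberg adjusted p = 0.00973, threshold 0.05). The fitted level was 0.668 times that of control.

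Klrc2 was at 2.39, 2.32, 2.06, 2.73 and 2.59 in controls and 1.73, 1.44 and 1.73 after GC, also without overlap. Its log2 change was -0.54 ± 0.14 (limma adjusted p = 0.0487), and this call was kept in only 5 of 22 alternative analyses. Klrd1 was at 6.18, 5.56, 5.76, 5.19 and 5.61 in controls and 2.80, 4.44 and 4.40 after GC. Its groups did not overlap either, yet its change of -0.56 ± 0.15 did not pass (limma adjusted p = 0.0574). Klrd1 was called in 7 of 22 alternatives, among them edgeR (adjusted p = 0.0433) and DESeq2 (adjusted p = 0.0324) on UMI sums. Klrc1 changed by -0.34 (95% interval -0.70 to 0.02, adjusted p = 0.256 by limma) and Klre1 by -0.57 (-1.20 to 0.07, adjusted p = 0.282 by limma), and both overlapped between groups. Klre1 was called in 5 of 22 alternatives, also by edgeR (adjusted p = 0.0294) and DESeq2 (adjusted p = 0.0316), and Klrc1 in none. Klrc2 was called by neither edgeR (adjusted p = 0.118) nor DESeq2 (adjusted p = 0.174). Single tumors decided some of these calls. Klrc2 lost its call without GC replicate 3 (adjusted p = 0.0742, limma) or without any 1 control tumor (0.0759 to 0.118). Klrd1 gained one without GC replicate 3 (-0.67, adjusted p = 0.0317, limma) or 5 (-0.66, adjusted p = 0.0420, limma), and Klre1, still negative, without GC replicate 2 (adjusted p = 0.00398, limma).

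These 5 members passed the filter on low values, a mean of 0.2 per 10000, and 2 of them were called lower, against 2.74% of 6158 genes tested (5.02% in either direction). A range of GC tumors wholly below control was seen in 3 of the 5 and in 9.55% of genes tested. The median log2 change was -0.56 over the 5 members and -0.09 over all genes. Klrk1 was called in 21 of 22 alternative analyses, and not when log values instead of linear values were averaged (adjusted p = 0.0713, limma). The direction of all 5 was negative in each of the 22. Among the 22, asking for at least 20 cells and leaving out GC replicate 2 used the same tumors and were the same fit. With CD8 1 and CD8 2 given the same weights in every tumor and CD8 3 left out, the change of Klrk1 was -0.51 (limma adjusted p = 0.0207). In GC replicate 2 that value rested on 6 CD8 1 cells and 4 CD8 2 cells.

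The share of CD8 T cells with a Klrk1 UMI at 2000 UMIs was 70.2% (67.1 to 73.3) of 857 control cells and 67.3% (57.4 to 76.2) of 104 GC cells. Klrc1 shares were 71.2% and 73.1%, and Klrc2 shares 32.3% (29.2 to 35.6) and 25.0% (17.0 to 34.4). These intervals are over pooled cells and cover counting error only. By tumor, the Klrk1 share was 68.5% to 75.0% in the 5 control tumors and 65.9% to 75.0% in the 3 GC tumors, and the Klrc1 share 58.0% to 76.2% and 58.3% to 78.0%, so both overlapped. The Klrc2 share was 29.6% to 35.0% in control tumors and 22.2% to 26.8% in GC tumors, without overlap, a difference that was not tested.

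**Figure D4:**
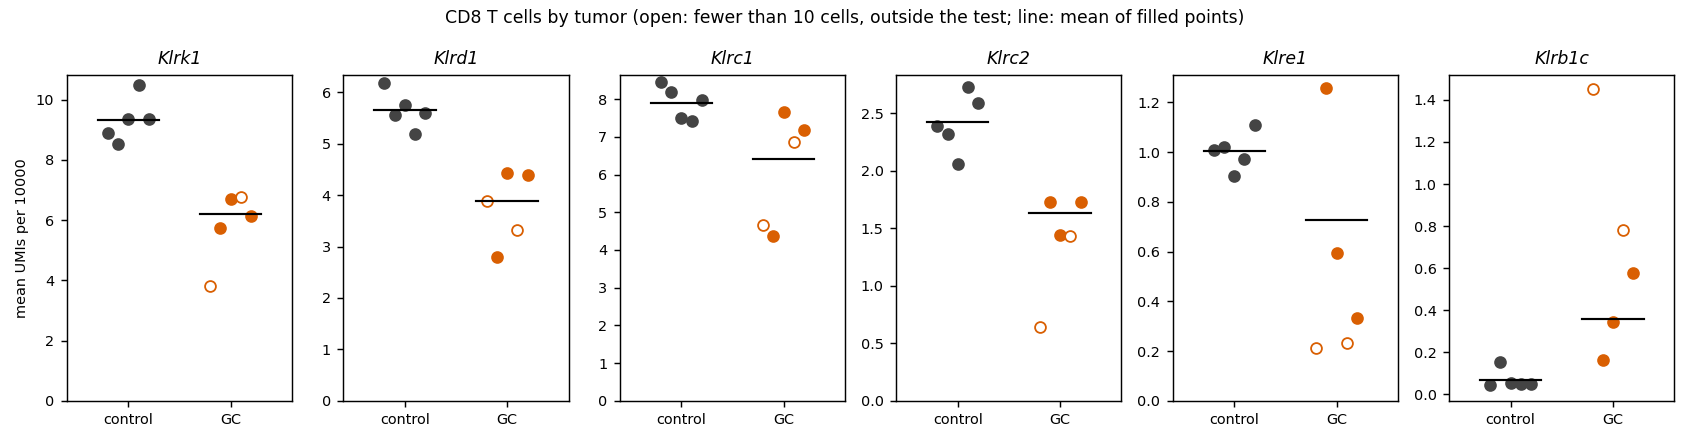
Mean UMIs per 10000 in CD8 T cells of each control and GC tumor, for the members, with 1 point per tumor and a bar at the group mean. Klrk1 lies between 8.53 and 10.5 in control tumors and between 5.73 and 6.69 in the 3 GC tumors used, and Klrb1c lies above the control range in them.

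Other values of the CD8 T cell clusters were also compared between the groups, without a test. The GC cells were deeper (median 9741 UMIs, against 6826). They were also fewer (107, against 880), but 3500 cells were loaded for the GC channel and 17100 for control. CD8 T cells were 107 of all 305 GC cells and 880 of all 3803 control cells. The summed level of 7 macrophage and monocyte markers was 0.949 to 1.48 per 10000 in control tumors and 0.0952 to 0.266 in GC tumors, with Fn1 at 0 after GC, and that of 4 neutrophil markers was 0.172 to 0.270 and 0.0461 to 0.133. The sum of 5 dendritic cell markers was 0.116 to 0.533 in control and 0.645 to 2.30 after GC, where Flt3, Clec9a and Siglech were at 0 and Ccr7 and Xcr1 were not. The 13 NK markers, none of them a member, summed to 33.9 to 42.6 and 30.5 to 34.6, and 4 proliferation markers to 0.493 to 0.689 and 0.230 to 0.578. The NK and the proliferation sums both overlapped between the groups. The part of depth, cell number and proliferation in the result was not tested. Without the cells that carried markers of other classes the change of Klrk1 was -0.63 (limma adjusted p = 0.00635), and Klrc2 was not called (limma adjusted p = 0.0599).

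The other 5 members were below the filter in CD8 T cells, and Klrb1c was the only one of them that was higher after GC. It was at 0.0461, 0.154, 0.0526, 0.0498 and 0.0498 in control replicates 1 to 5 and at 0.162, 0.344 and 0.575 in GC replicates 2, 3 and 5. All 3 GC tumors were above all 5 controls, as in 5.70% of genes tested. Testing 9244 genes with a lower filter of 0.05, which both groups passed, gave a log2 change of 1.37 ± 0.32 (limma adjusted p = 0.0382, where 3.42% of genes were called), and testing all genes gave an adjusted p of 0.0907 by limma. A Klrb1c UMI was found in 33 of 880 control and 18 of 107 GC cells, and after thinning in 1.52% (0.810 to 2.58) and 4.81% (1.58 to 10.9) of the pooled cells. By tumor the thinned share was 0% to 3.14% in control and 2.78% to 8.33% after GC, which overlapped. Of the 18 GC cells, 17 held a Cd3 UMI and 18 a Cd8a or Cd8b1 UMI, whereas 6 of the 100 Klrb1c cells of the NK cluster held a CD8 UMI. Klra1, Klra7, Klrg1 and Ncr1 had no UMI in the 107 GC cells.

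Within CD8 1, the cluster with most of the Klrb1c UMIs, Klrb1c rose after GC. Here 2 GC tumors had at least 10 cells (replicates 3 and 5, with 18 and 21). Control tumors were at 0.0566, 0.246, 0.0775, 0.0789 and 0.0789 per 10000 and the GC tumors at 0.611 and 0.905. The log2 change was 2.09 ± 0.38 (limma adjusted p = 0.00513), in a comparison that called 6.38% of 6190 genes and 2.62% as higher. Both GC tumors were above all controls, as in 9.84% of genes. Klrb1c reached the filter of 0.2 here only through its GC level, so its call is not counted with those of the other members, but with the filter at 0.05, which its control mean of 0.108 also passes, the adjusted p was 0.00334 by limma (4.75% of genes called). With no filter the adjusted p was 0.0118 by limma. Without GC replicate 5 it was under the filter and not tested. The GC level rested on few molecules, 11 UMIs in 3 of 18 cells and 19 UMIs in 6 of 21.

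In the same cluster Klrk1 and Klre1 fell. Klrk1 went from 10.8 ± 0.746 (n = 5) to 8.51 and 6.88, a log2 change of -0.49 ± 0.12 (limma adjusted p = 0.0301). Klre1 was at 0.948, 1.46, 0.673, 0.696 and 0.761 in controls and 0.437 and 0.218 after GC, a log2 change of -1.23 ± 0.31 (limma adjusted p = 0.0311). Both calls were unstable, kept in 8 and 9 of 19 alternatives, and without GC replicate 5 the changes were -0.34 (adjusted p = 0.0867, limma) and -0.86 (adjusted p = 0.0722, limma). Without GC replicate 3 they were -0.64 (adjusted p = 0.00342, limma) and -1.61 (adjusted p = 0.00256, limma). Either fit leaves 1 GC tumor, whose spread is assumed to be that of the control tumors. Leaving out control replicate 1, 2, 3 or 4 also ended the call of Klrk1 (limma adjusted p from 0.0609 to 0.0700), and the call of Klre1 ended without control replicate 1, 2, 4 or 5 (0.0537 to 0.0745). Of the 5 members that passed the filter in both groups 2 were called lower, against 3.76% of 6190 genes. Klrd1 (-0.45, adjusted p = 0.0569 by limma, and -0.58 with an adjusted p of 0.0125 with replicate 3 as the 1 GC tumor), Klrc2 (-0.45, adjusted p = 0.142) and Klrc1 (0.04, 95% interval -0.23 to 0.30) were not called.

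In CD8 2 none of the 5 members tested was called by limma, against 2.12% of 6072 genes, and 2 had an unadjusted p under 0.05. By edgeR and DESeq2, which called 92 and 101 genes (1.52% and 1.66%), none was called either. The 5 log2 changes were all negative, from -0.84 (95% interval -1.96 to 0.28) for Klre1 to -0.31 (-0.70 to 0.08) for Klrc1. The GC effect was not shown to differ between CD8 1 and CD8 2. Of 6177 genes 0 passed limma's test of that difference, with 627 at an unadjusted p under 0.05, and the smallest adjusted p of a member was 0.758. For Klrk1 the difference was -0.15 on the log2 scale, with an interval from -1.03 to 0.73, which is wider than the effects compared. For Klrb1c, tested only with the filter at 0.05, it was 1.69 ± 0.53 (limma adjusted p = 0.290).

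Genes around the receptors were counted in CD8 T cells by list, beside the 5.02% of all genes called (2.74% lower). None of 10 adaptor and signalling genes tested passed, including Hcst (4.58 ± 0.304 in control and 4.03 ± 0.211 after GC, log2 change -0.18, limma adjusted p = 0.370). None of 9 cytokine receptor genes passed, with Il2rb at -0.03 (95% interval -0.26 to 0.21). Of 9 other NK receptor genes 2 fell and 1 rose, against 5.02% called among all genes. Slamf7 fell by 1.05 and Cd226, which encodes the activating receptor DNAM-1, fell by 0.97 on the log2 scale (limma adjusted p = 0.00296 and 0.00408). Tigit, the inhibitory receptor that shares ligands with DNAM-1, rose by 1.42 (limma adjusted p = 0.00676), from 0.640 ± 0.188 to 1.88 ± 0.546.

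Of 7 ligand genes Cdh1, a KLRG1 ligand, fell by 1.16 and Clec2d, the ligand of an NKR-P1 receptor, fell by 0.95 (limma adjusted p = 0.00425 and 0.00912). Of 12 transcription factors 2 fell and 1 rose, against the same 5.02%. Tbx21 (T-bet), which drives effector and NK programs, went from 4.03 ± 0.148 to 1.40 ± 0.468, a fall of 1.50 on the log2 scale (95% interval of the change -1.88 to -1.12), with every GC tumor below every control (limma adjusted p = 7.5e-04). Gata3 fell by 1.14 and Prdm1 rose by 1.18, the latter close to the threshold (limma adjusted p = 0.00912 and 0.0490).

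In the remaining classes GC cells were too few for a test, and pooled UMIs are given with exact 95% Poisson intervals that cover counting error only. The 4 GC NK cells held 87 Klrc1 UMIs, or 11.0 per 10000 (8.77 to 13.5), against 4.58 (4.17 to 5.02) in 107 control NK cells. All 4 cells held the gene, and 1 of them held 37 of the 87 UMIs. Klrd1 was at 6.92 (5.22 to 9.01) and 7.07 (6.55 to 7.61), and Klrb1c at 6.42 (4.78 to 8.44) and 5.69 (5.23 to 6.17). All 26 Klra7 UMIs came from 1 cell, and Klra1 and Klrg1 had none. With 4 cells from 2 tumors, these values describe those cells.

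The 11 γδT cells of GC tumors, from 4 tumors, held 84 Klrk1 UMIs in 10 cells, of which 1 cell held 32. That was 10.8 per 10000 (8.65 to 13.4), against 2.44 (1.91 to 3.06) in 43 control cells. Klrc1 in the same cells was at 3.23 (2.09 to 4.76) and 0.263 (0.114 to 0.519), of which 1 cell held 16 of 25 UMIs. Klrk1 in these few γδT cells thus stood above the control level, and 1 control tumor, replicate 4, had reached 5.66. In the 14 GC Tregs Klrg1 was at 1.19 (0.667 to 1.97), against 2.05 (1.90 to 2.22) in 486 control Tregs, with 11 of 15 GC UMIs in 1 cell. Klrc1, also with 15 GC UMIs, was at the same level after GC and at 0.169 (0.127 to 0.220) in control, with 12 of its GC UMIs in 1 cell. In the 10 GC cells of the CD4 cluster Klrb1c was at 1.92 (1.17 to 2.96), against 0.763 (0.646 to 0.895), with 15 of 20 UMIs in 1 cell.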

How the data were processed

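Live CD45+ cells of 5 control and 5 clobetasol propionate treated tumors were profiled with a 3′ gene expression kit. Per the labels and the study's methods, the authors used Cell Ranger 7.1.0 on mm10 with introns included, R 4.3.1 and Seurat 5.0.3, kept cells with 1 hashtag, removed outlier cells and named the clusters after integrating both channels. The deposited values are the natural log of 1 plus UMIs per 10000. The cell table deposited with them gives the count of UMIs and of genes, the mitochondrial percent, the hashtag and the cluster. Whole UMIs were recovered for 100% of values (tolerance 0.01). No doublet caller was run. The replicate was the tumor (hashtag). Hashtag numbers are only names, and whether mice were matched in another way is not given in the sources used here, so p-values measure the spread between these tumors. 

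Linear values were averaged per tumor and class, and log2(mean + 0.1) was tested in R 4.3.3 by limma 3.58.1 with a trended and robust variance, on genes with a mean of at least 0.2 and tumors with at least 10 cells, with Benjamini-Hochberg adjustment over all genes. Fold changes of weakly expressed genes are understated on this scale. On recovered UMI sums, edgeR 4.0.16 (quasi-likelihood) called 379 genes and DESeq2 1.42.0 called 390 in CD8 T cells, against 309 by limma. Levels by class used tumors with at least 5 cells. The members and gene lists were chosen with earlier results of these data known. All 10 members were named, and from each list up to 4 genes past the threshold with the lowest adjusted p, or else the 2 highest in control. Klrh1 had no row by that symbol. Intervals and the floor of 3 UMIs cover counting error only. The separate hashtag libraries were used only through the deposited hashtag calls.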

Additional observations from a re-analysis of the deposited data

Results flagged for a closer look

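Of 47 groups of 4 or 5 tumors checked, 5 held a tumor far from the others, where chance gives about 1 in 20. Each is given as a value, with the cells behind it, and its cause was not tested.

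Among the NK cells of control tumors, replicate 5 was far above the rest for both Ly49 genes. Its Klra1 level was 8.30 UMIs per 10000, with the others between 0.830 and 1.81, and its Klra7 level was 11.5, with the others between 3.77 and 4.39. Both values came from the same 6 cells. For Klrg1, NK cells of replicate 4 (18 cells) stood at 1.41 with the others between 0 and 0.297.

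In γδT cells, replicate 4 (8 cells) stood at 5.66 for Klrk1, with the others between 1.24 and 2.33. Among the 5 GC tumors with at least 5 CD8 T cells, replicate 1 (7 cells) was the lowest for Klrc2, at 0.644, with the others between 1.43 and 1.73. That tumor had too few cells for the main comparison.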

How the results depend on the processing

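The number of members highest in NK cells, 7, was 6 to 7 without 1 control tumor and 6 without NK cells holding a Cd3 UMI, the 6 in each case without Klrd1. The highest level of each member moved by less than its SD between tumors, but for Klra1 in NK cells (2.72) that SD came mostly from replicate 5, and the level was 1.33 without it or with at least 10 cells per tumor. Shares of cells depended on depth, moving for 9 of 10 genes without thinning and 8 of 10 at 4000 UMIs.

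In CD8 T cells 2 members were called. The number was 4 with UMI sums over totals, 1 with CD8 4 added, with median-of-ratios scaling, without a filter, with a pseudocount of 0.02 and without cells carrying other markers, and 0 with log values averaged. Without 1 tumor it ran from 1 to 3. Genes called, 309, became 167 without a filter, 604 with at least 20 cells per tumor, 195 with at least 5, and 135 to 604 without 1 tumor. Fewer genes tested or fewer tumors were used in some of these, and the cause was otherwise not tested.

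In CD8 1 the members called, 3 with Klrb1c included, became 1, Klrb1c alone, with DESeq2, with edgeR, with log values averaged and without a filter, and 1 to 3 without 1 tumor. Leaving out a GC tumor in CD8 1 or CD8 2, or asking for 20 cells in CD8 1, left 1 GC tumor, assumed to vary like the controls. In CD8 1, asking for 20 cells and leaving out GC replicate 3 were the same fit, counted as separate alternatives. Genes called, 395, became 199 with DESeq2, 222 with edgeR, 231 without a filter, 844 with at least 20 cells, 151 with at least 5, and 218 to 1250 without 1 tumor. Klrb1c was under the filter without GC replicate 5. Klrc1 turned to -0.06 with UMI sums over totals and without GC replicate 5, and to -0.32 with at least 5 cells, and ran from -0.06 to 0.14 without 1 tumor.

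In CD8 2 the genes called, 129, became 212 with log values averaged, 69 without a filter and 63 to 146 without 1 tumor, with 0 members called throughout. For the difference between clusters, 0 genes became 2 with a pseudocount of 0.5 and 0 to 11 without 1 tumor. Without 1 tumor the difference ran from -0.36 to 0.25 for Klrd1 (positive without GC replicate 3), -0.04 to 0.73 for Klrc1 (negative without GC replicate 5) and -0.63 to 0.16 for Klre1 (positive without control replicate 2).

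No paired analysis was possible because hashtag numbers only name tumors and nothing ties a control tumor to a GC tumor. With 2 or 3 GC tumors and 12 to 41 CD8 T cells in each, low members could not be tested well.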

Other observations

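Some members were also found outside the lymphocyte clusters above. In the 95 control cells of cluster DC 2, Klrd1 was at 3.24 ± 0.621 UMIs per 10000 (SD, n = 5 tumors) and Klrk1 at 3.50 ± 1.07. After thinning to 2000 UMIs, a Klrd1 UMI was found in 36.8% of these cells (27.2 to 47.4, exact 95% binomial interval) and a Klrk1 UMI in 49.5% (39.1 to 59.9). The shares in TAMs, monocytes and neutrophils were 1.84% and 6.75%. In the 97 control cells of DC 1, Klrk1 was at 2.16 ± 0.688 and Klrd1 at 0.839 ± 0.291. Klrc1, the NKG2A partner of CD94, was found in 1.05% of DC 2 cells and 2.11% of DC 1 cells, so that Klrd1 was present in DC 2 with little Klrc1.

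In the 30 control cells of CD8 4, a cluster kept out of the main comparisons, Klrk1 was at 5.94 ± 3.22 and Klrc1 at 4.79 ± 2.74. Klrg1 was at 1.00 ± 1.26 there, from 0 to 3.00 between tumors, with a UMI in 4 of the 30 cells. Klra1, Klra7 and Ncr1 had no UMI in CD8 4. No GC cell fell into this cluster.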
